A study of Mus musculus with 6 samples.

Results

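A20, the product of Tnfaip3, is a ubiquitin-editing enzyme that limits NF-κB signalling, and 10 genes were followed here: Tnfaip3 itself, the A20-binding proteins Tnip1, Tnip2 and Tnip3, the A20 partners Tax1bp1 and Itch, the deubiquitinase Cyld, and Tnfaip2, Traf1 and Birc3. They were chosen by gene symbol, as A20, its partners and other NF-κB feedback genes, with earlier results of these data known. All 10 were found among the 24411 genes of the deposited tables, and all 10 passed the filter on low counts that kept 10124 genes. RNA was sequenced from primary microglia, the resident macrophages of the brain, cultured from pooled whole brains of 12 ICR mice aged 3 days. All cells received FTY720 (fingolimod, an analogue of sphingosine) at 1 µM for 4 h, without further treatment in 3 libraries. The other 3 libraries came from cells given LPS at 10 ng/ml as well, the lipopolysaccharide of the bacterial outer membrane that Toll-like receptor 4 detects. There was no library without FTY720 in the samples used here, so the comparison gives the change on adding LPS to FTY720-treated cells and not the effect of FTY720. Replicates were separate RNA samples per the labels' protocols. No source used here says whether the cultures were separate, so p-values measure only the spread between these samples.

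When LPS engages Toll-like receptor 4, or TNF its receptor, ubiquitin ligases build chains on signalling proteins. These chains recruit the kinases that release NF-κB into the nucleus. A20 removes or caps such chains and is itself an NF-κB target gene, which makes it a classic negative feedback loop in macrophages and microglia. The TNIP proteins (also called ABINs) bind both ubiquitin chains and A20, TAX1BP1 and the ligase ITCH assist A20, and CYLD cuts linear and lysine-linked chains without being part of the A20 complex. TRAF1 and BIRC3 (cIAP2) act at TNF receptor complexes. TNFAIP2, although named for its induction by TNF, is a Sec6-related protein linked to membrane protrusions and is not known as a ubiquitin-editing enzyme.

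Of the 10 genes, 7 rose, 1 fell and 2 did not pass the test when LPS was added (edgeR's quasi-likelihood test, adjusted p under 0.05 over all genes tested). Tnfaip2, Traf1, Tnip3 and Tnfaip3 rose most, Tnip1, Birc3 and Tax1bp1 rose by smaller factors, Cyld fell, and Tnip2 and Itch were not called. Over all 10124 tested genes 46.0% were called, 23.3% higher and 22.7% lower. A call at least 2-fold higher was made for 8.49% of all tested genes and for 5 of the 10. The median log2 fold change of the 10 genes was 0.90, against -0.04 over all tested genes. For the 8 called genes no library of 1 group reached the range of the other, which was the case for 54.0% of all tested genes. The genes were chosen with earlier results of these data known, so these contrasts are no test of the group.

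**Figure D1:**
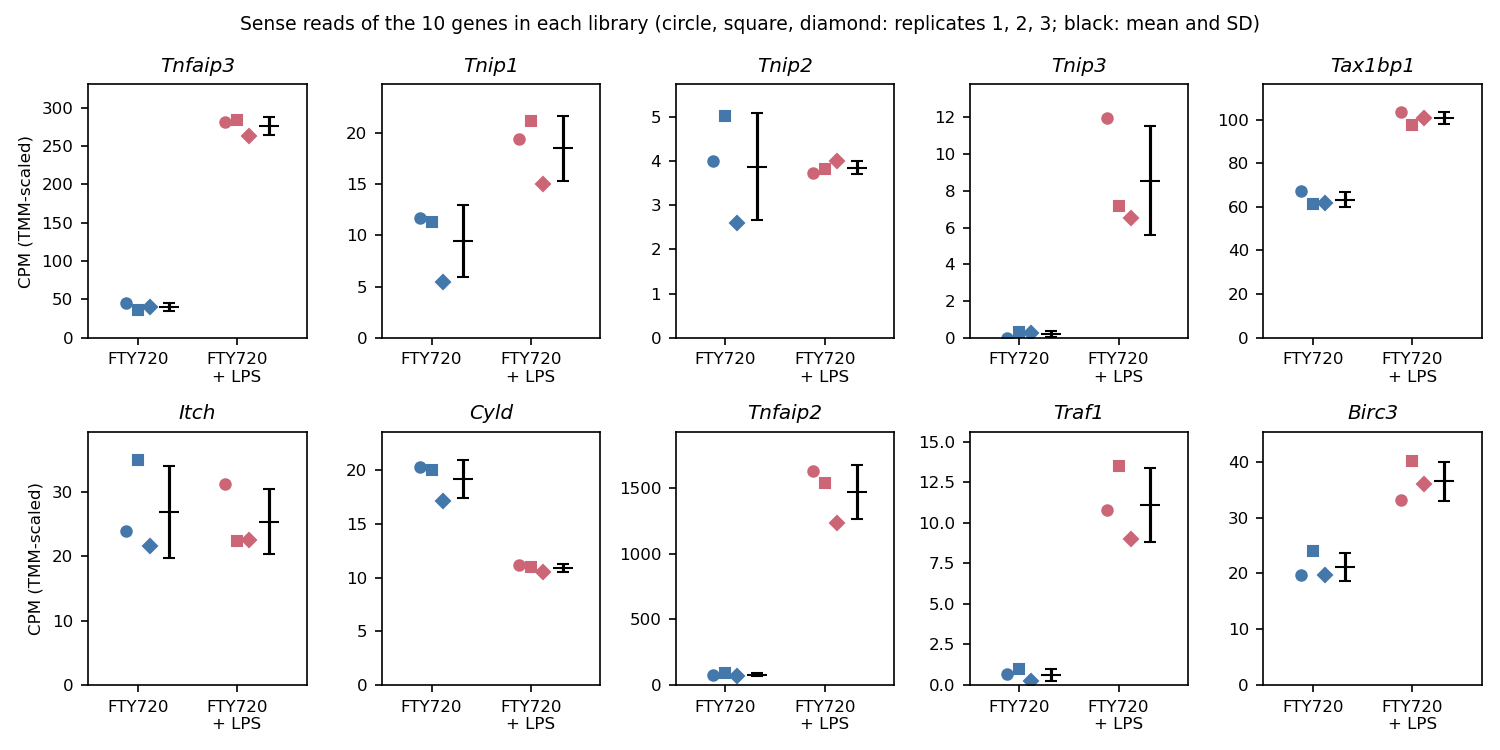
Sense reads (CPM, scaled with TMM factors, vertical axis from 0) of the 10 genes in the 3 libraries with FTY720 (blue) and the 3 with FTY720 and LPS (red), with the mean and SD in black. The groups are apart for all genes other than Tnip2 and Itch, and Cyld is the gene that is lower with LPS.

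Several measures of the libraries moved with the groups or stood apart. Gene reads numbered 2431775 to 3454647 per library, of which 28.8% to 59.0% fell on Rn45s, Lars2 and Mir6236, which collect ribosomal RNA-like reads, so that 1340915 to 2116218 remained for other genes. A single read was worth 0.235 to 0.334 CPM with FTY720 and 0.373 to 0.501 CPM with LPS. A count of 0 allows up to 3 reads, or 0.706 to 1.50 CPM. Unmapped reads made up 24.4% to 25.2% of listed reads with FTY720 and 26.6% to 27.0% with LPS. Listed reads that named no gene, unmapped ones included, made up 74.5% to 77.3% and 78.4% to 79.2%. FTY720 replicate 3 stood apart from the other libraries of its group (chi-square per degree of freedom 3.50 and 4.39 against replicates 1 and 2, which stood at 1.31 from each other). Without that library the same 8 genes were called in the same directions. CD11b-positive cells made up more than 92% of the culture per the labels, and all 10 microglial markers had reads, although Tmem119, with 2 to 6 reads per library, was too low to be tested. The summed level of the 10 microglial markers was 1950 to 2125 CPM with FTY720 and 2982 to 3456 CPM with LPS, with 8 of 9 tested markers higher and 0 lower. Summed oligodendrocyte-lineage markers went from 278 to 304 CPM down to 145 to 168 CPM (6 of 7 tested lower) and neuron markers from 180 to 241 CPM down to 97.6 to 109.7 CPM (3 of 3 lower), while 2 of 6 tested astrocyte markers were higher and 1 lower. Summed endothelial markers went from 4.34 to 6.68 CPM up to 11.4 to 14.5 CPM, and Cdh5, the 1 tested, was higher (3.07-fold, edgeR adjusted p = 0.000874). Summed neutrophil markers went from 0.668 to 3.53 CPM up to 4.10 to 5.51 CPM, with S100a8, the 1 tested, higher (2.23-fold, edgeR adjusted p = 0.0418) and S100a9 at 0 reads. Fibroblast and mural markers stood at 19.3 to 41.1 and 22.8 to 44.6 CPM, with 0 of 4 tested called and Rgs5 at 0 reads. Lymphocyte markers summed to 0 to 0.334 and 0.501 to 1.69 CPM, with none tested and Cd3g at 0 reads. The part of these shifts in the changes of the 10 genes was not tested, and in such bulk samples fewer cells of a type and less RNA per cell cannot be told apart.

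Counts per 1000000 reads (CPM, scaled with TMM factors, which align the libraries on the bulk of their genes) are given for each library in the order of replicates 1, 2 and 3. Tnfaip3 stood at 45.7, 35.7 and 39.8 CPM in the 3 FTY720 libraries and at 282, 284 and 263 CPM in the 3 with LPS. Every library with LPS lay far above every library without it, and the spread within each group was small. The means were 40.4 ± 5.03 and 276 ± 11.6 CPM (SD, n = 3 each), a 6.83-fold rise (log2 fold change 2.77 ± 0.13, SE, 95% interval 2.51 to 3.03, edgeR adjusted p = 1.23e-14). Tnfaip3 ranked 159 of 10124 genes by log2 fold change. The gene lies on chromosome 10 (19000910 to 19015657, minus strand, GENCODE M21 on GRCm38, the annotation of all positions of genes given here). All 10 genes are protein-coding.

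The 3 TNIP genes diverged. Tnip3 (chromosome 6, 65525313 to 65634040, plus strand) had 0, 1 and 1 reads with FTY720 and 32, 17 and 13 with LPS. It was at or near 0 in all 3 FTY720 libraries and clearly detected in all 3 with LPS. The ratio of summed reads, 2 against 62, was 45.1 after scaling, with a 95% counting interval of 12.0 to 380. The estimate of edgeR was 36.7-fold (log2 fold change 5.20 ± 0.58, 95% interval 15.9-fold to 84.6-fold, edgeR adjusted p = 1.42e-07).

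Tnip1 (chromosome 11, 54910785 to 54962917, minus strand), whose product binds A20 and linear ubiquitin chains, stood at 11.7, 11.4 and 5.41 CPM with FTY720 and 19.4, 21.2 and 15.0 CPM with LPS. The groups did not overlap, although FTY720 replicate 3 lay well below replicates 1 and 2. The rise was 2.03-fold (log2 fold change 1.02 ± 0.26, 95% interval 0.48 to 1.57, edgeR adjusted p = 0.00305), and 0.70 without FTY720 replicate 3 (adjusted p = 0.0108). With total gene reads in place of TMM factors the call ended (0.74, adjusted p = 0.0637).

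Tnip2 (chromosome 5, 34496087 to 34513991, minus strand) stood at 4.00, 5.01 and 2.59 CPM with FTY720 and 3.73, 3.81 and 4.00 CPM with LPS, or 38 and 27 reads in all. The FTY720 libraries spanned those with LPS. The log2 fold change of 0.03 ± 0.38 was not called (edgeR adjusted p = 0.951), and its interval, -0.74 to 0.81, leaves room for changes of up to 1.75-fold in the upward direction at this depth. Of the reads listed at Tnip2, 25.3% lay on the opposite strand (22 of the opposite strand beside 65 sense reads), the largest share among the 10 genes. GENCODE M21 lists no other gene over the span of Tnip2.

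Promoter sequences are shown for Tnfaip3, Tnip1, Tnip3 and Cyld. These 4 genes have a κB site, the sequence bound by NF-κB, before their RefSeq start. A promoter window from RefSeq (GRCm38.p6, 250 bases before to 50 after a gene's start) was held for 9 of the 10 genes, Itch being the one without, in 11 windows. The κB consensus of 10 letters was searched on both strands. It matched in 5 of the 9 genes, against 5.14% of the 27025 genes with a window (4.51% of 32851 windows). The genes were chosen as NF-κB feedback genes, so this contrast is no test. The match of the fifth gene, Tax1bp1, lay after the start of its second window. No match was found in the windows of Tnip2, Tnfaip2, Traf1 and Birc3, which says only that these letters are not in those windows. The RefSeq start is not always the start in GENCODE M21. The Tnfaip3 and Tnip3 stretches lie inside the GENCODE spans, which begin at 19015657 and 65525313 on the gene's strand. Those of Tnip1 and Cyld lie outside the spans. The Tnfaip3 stretch is cut at a GENCODE exon of the gene. The stretches below run 5′ to 3′ on the gene's strand and end at the base before the RefSeq start, with κB matches in capitals.
Tnfaip3, chr10:19015411-19015547, minus strand: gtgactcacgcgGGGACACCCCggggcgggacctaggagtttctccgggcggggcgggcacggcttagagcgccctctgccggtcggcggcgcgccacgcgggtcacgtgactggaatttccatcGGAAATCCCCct
Tnip1, chr11:54962941-54963100, minus strand: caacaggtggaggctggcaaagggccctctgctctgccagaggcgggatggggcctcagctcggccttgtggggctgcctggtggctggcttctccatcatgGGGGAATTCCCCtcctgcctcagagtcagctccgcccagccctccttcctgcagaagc
Tnip3, chr6:65590238-65590397, plus strand: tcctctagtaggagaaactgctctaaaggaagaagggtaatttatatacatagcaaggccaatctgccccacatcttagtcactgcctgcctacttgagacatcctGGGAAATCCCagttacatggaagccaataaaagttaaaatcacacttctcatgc
Cyld, chr8:88696868-88697027, plus strand: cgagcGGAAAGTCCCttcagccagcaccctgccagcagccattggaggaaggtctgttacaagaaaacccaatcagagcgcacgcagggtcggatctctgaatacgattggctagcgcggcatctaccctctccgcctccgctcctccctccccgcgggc

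In Tnfaip3 one match, GGAAATCCCC, ran from 12 to 3 bases before the start and another, GGGACACCCC, from 125 to 116 bases before it. An AP-1 motif, TGACTCA, ran from 136 to 130 bases before the start, with no overlap, and TGACTCA was present in 5.95% of all genes' windows. In Tnip1, 3 overlapping matches formed 1 stretch, of which GGGAATTCCC reads the same on both strands. In Tnip3 the match GGGAAATCCC ran from 54 to 45 bases before the start and was matched on both strands. The letters TATAAA, present in 15.7% of all genes' windows, were found at Tnip3 on the strand opposite to the gene. They read TTTATA on the gene's strand. TATAAA was also found on the gene's own strand at Tnfaip3, from 225 to 220 bases before its start and outside the stretch shown. Cyld held GGAAAGTCCC from 155 to 146 bases before its start. So 3 of the genes that rose and the 1 that fell carried a match before their RefSeq start.

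Of the A20 partners Tax1bp1 and Itch, the first rose and the second was not called. Tax1bp1 (chromosome 6, 52713729 to 52766780, plus strand), which encodes an autophagy and A20 adaptor, stood at 67.1, 61.1 and 61.9 CPM with FTY720 and 103, 97.7 and 101 CPM with LPS. No library of 1 group reached the other, and the spread within groups was the smallest relative to the mean among the genes that rose. The rise was 1.59-fold (log2 fold change 0.67 ± 0.12, 95% interval 0.41 to 0.92, edgeR adjusted p = 0.000113). This lies within the range of the microglial markers that rose, from Trem2, a lipid-sensing receptor, at 1.53-fold to Aif1 at 2.30-fold. Itgam, which encodes CD11b, rose 1.75-fold. The 2.03-fold rise of Tnip1 lies in that range too. Csf1r, the tested microglial marker that did not rise, was not called (log2 fold change -0.18, edgeR adjusted p = 0.383). Whether the rises of the markers and of these genes are linked was not tested. With total gene reads alone Tax1bp1 was not called (0.35, adjusted p = 0.363).

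Itch (chromosome 2, 155133509 to 155226855, plus strand), a ubiquitin ligase of the NEDD4 family, stood at 24.0, 35.1 and 21.7 CPM with FTY720 and 31.3, 22.4 and 22.5 CPM with LPS. The groups overlapped, with FTY720 replicate 2 the highest of all 6 libraries. The log2 fold change was -0.05 ± 0.20 (95% interval -0.48 to 0.37, edgeR adjusted p = 0.845), and its sign changed when FTY720 replicate 2 was left out (0.20, adjusted p = 0.466).

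Cyld (chromosome 8, 88697028 to 88751945, plus strand) stood at 20.4, 20.0 and 17.2 CPM with FTY720 and at 11.2, 11.0 and 10.5 CPM with LPS. The 3 libraries with LPS lay close together and below all 3 with FTY720. The fall was 1.74-fold (log2 fold change -0.80 ± 0.21, 95% interval -1.24 to -0.36, edgeR adjusted p = 0.00386), from 194 reads to 77. Cyld was the 1 gene of the 10 that fell, and its call held under all 16 alternative settings (log2 fold change -1.25 to -0.62, adjusted p at most 0.0455, with DESeq2).

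Tnfaip2, Traf1 and Birc3 all rose. Tnfaip2 (chromosome 12, 111442469 to 111455018, plus strand) stood at 78.1, 88.8 and 65.4 CPM with FTY720 and at 1628, 1540.0 and 1235 CPM with LPS. It was the most abundant of the 10 genes in both groups, with 10473 reads in the 3 libraries with LPS. The rise was 19.0-fold (log2 fold change 4.25 ± 0.14, 95% interval 3.96 to 4.54, edgeR adjusted p = 2.31e-17). With the trend of fold change on expression level removed, it was 3.38 (adjusted p = 1.66e-15). A long antisense gene in GENCODE M21, Gm40578, overlaps 4614 bases of Tnfaip2, exons included, and 0.284% of the reads at Tnfaip2 lay on the opposite strand.

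Traf1 (chromosome 2, 34941750 to 34961772, minus strand), an adaptor that lacks the ligase domain of its relatives, had 2, 3 and 1 reads with FTY720 and 29, 32 and 18 with LPS. It was near the detection floor in all 3 FTY720 libraries, and all 3 with LPS lay well above it, at 10.8, 13.5 and 9.01 CPM. The rise was 17.8-fold, with a wide 95% interval of 9.42-fold to 33.5-fold (log2 fold change 4.15 ± 0.44, edgeR adjusted p = 6.5e-08).

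Birc3 (chromosome 9, 7848699 to 7873186, minus strand), a ubiquitin ligase of the inhibitor of apoptosis family, stood at 19.7, 24.0 and 19.8 CPM with FTY720 and at 33.2, 40.2 and 36.0 CPM with LPS. All 3 libraries with LPS were above all 3 without. The rise was 1.73-fold (log2 fold change 0.79 ± 0.17, 95% interval 0.43 to 1.14, edgeR adjusted p = 0.000665), again of the size seen for Itgam. With total gene reads alone the call ended (0.48, adjusted p = 0.198).

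**Figure D2:**
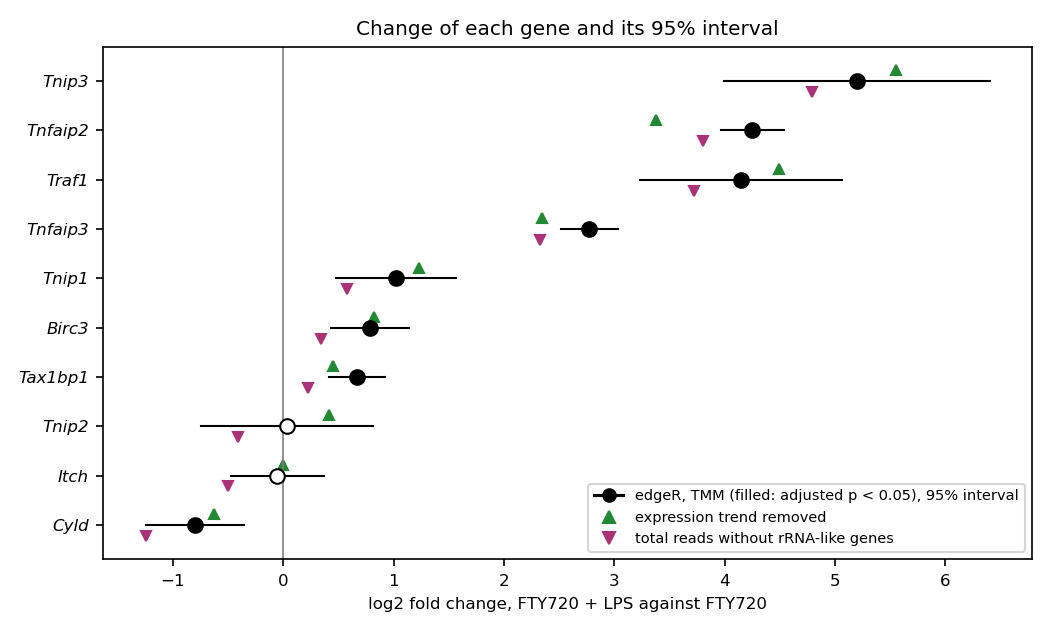
Log2 fold change of each gene (horizontal axis; black circles filled where the adjusted p was under 0.05, lines the 95% intervals), with the value after removing the expression trend (green) and with total reads without the 3 rRNA-like genes as scaling (purple). The 4 largest changes stay above 2 under each of these, while Tnip1, Birc3 and Tax1bp1 stay positive and come nearer to 0 under the second scaling.

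The order of the 10 genes changed with LPS. On the scale of CPM per kilobase of exon (all annotated exons of a gene joined, GENCODE M21), Tnfaip2 was highest with FTY720 at 15.5 ± 2.35 (SD, n = 3), followed by Tax1bp1 at 6.34 ± 0.32 and Tnfaip3 at 5.59 ± 0.70, and Tax1bp1 and Tnfaip3 overlapped between libraries. Traf1 at 0.072 ± 0.044 and Tnip3 at 0.017 ± 0.016 were lowest and overlapped. With LPS, Tnfaip2 stood at 295 ± 41.4, and Tnfaip3, now second, at 38.2 ± 1.60, apart from Tax1bp1 at 10.1 ± 0.28. Birc3 at 7.28 ± 0.70 and Tnip1 at 5.23 ± 0.89 came next, each without overlap with its neighbours. At the low end Tnip2 at 1.43 ± 0.053 overlapped with Traf1 at 1.26 ± 0.26, and Cyld at 0.87 ± 0.028 with Tnip3 at 0.78 ± 0.27. Among the annotated lengths, 12576 bases for Cyld and 10916 for Tnip3 join the exons of 11 and 8 transcripts, so levels of such genes are low estimates where shorter transcripts are in use.

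Ratios of reads between related genes in the same library do not depend on scaling between libraries, and 5 such ratios were compared (0.5 read added to each count). The ratio of Tnfaip3 to Cyld was 2.24, 1.78 and 2.31 in the FTY720 libraries and 24.8, 25.3 and 24.4 with LPS. Tnfaip3 thus had more reads than Cyld in every library, and the groups were far apart, with an 11.9-fold change of the ratio (difference of mean log2 ratios 3.57). The ratio of Birc3 to Birc2, its neighbour on chromosome 9 that encodes cIAP1, was 1.02, 1.09 and 0.885 with FTY720 and 1.48, 1.89 and 1.67 with LPS. These paralogs were thus level without LPS and Birc3 was ahead in all 3 libraries with it (difference 0.75). Birc2 itself was not called (log2 fold change 0.03 ± 0.18, edgeR adjusted p = 0.918, with the sign turned under upper-quartile scaling, both total-read scalings, a minimum count of 30 and without FTY720 replicate 1). The ratio of Traf1 to Traf2, a related adaptor and ligase, rose from 0.035, 0.054 and 0.018 to 0.294, 0.376 and 0.252 (difference 3.22). The ratio of Tnip1 to Tnip2 went from 2.84, 2.23 and 2.04 to 5.00, 5.32 and 3.59 (difference 0.96), and that of Tnip3 to Tnip1 from 0.014, 0.043 and 0.064 to 0.619, 0.347 and 0.443 (difference 3.75). That last difference rests on 0, 1 and 1 reads of Tnip3 with FTY720. It was 3.18 with 1 read added and 4.78 with 0.1 read added, and 3.11 without FTY720 replicate 1. In each of the 5 ratios all 3 libraries with LPS lay above all 3 without (exact two-sided permutation p = 0.1 each, 0.1 adjusted, the smallest p that 3 against 3 libraries allow).

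**Figure D3:**
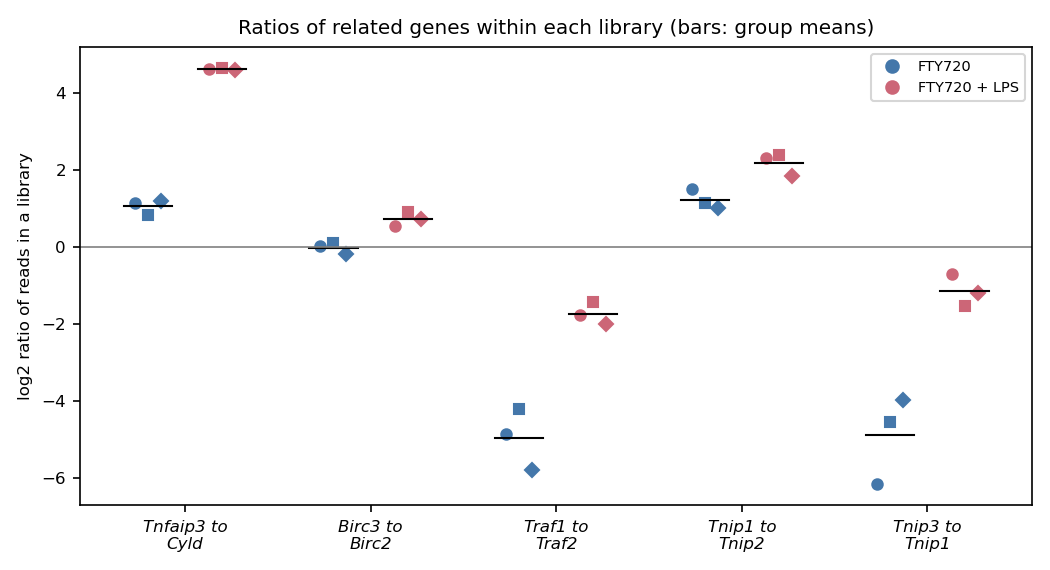
Log2 ratio of reads between 5 pairs of related genes in each library (vertical axis; circle, square and diamond mark replicates 1, 2 and 3; bars are group means). The libraries with LPS (red) lie above those with FTY720 alone (blue) for each pair, by 3.57 for Tnfaip3 to Cyld and 0.75 for Birc3 to Birc2; the position of Tnip3 to Tnip1 with FTY720 depends on the 0.5 read added.

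The rest of the receptor ubiquitin pathway was described from a list of 49 other genes found in the tables, all of which were tested. Of these, 20 were higher, 7 lower and 22 not called, with a median log2 fold change of 0.25. That is 55.1% called, against 46.0% of all tested genes. Higher calls made up 40.8% of the list, against 23.3% of all tested genes, and lower calls 14.3%, against 22.7%. The list was chosen with earlier results of these data known. With total gene reads alone 5 were higher and 9 lower, so the split of this list depends on scaling. Grouping by role was done after the values were seen, and each role holds few genes. The counts by role below stand beside 23.3% higher and 22.7% lower over all tested genes. They are no test of a role.

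Among receptors and adaptors 5 of 9 were higher and 2 lower. Ripk2, a kinase adaptor of NOD receptors, rose 7.23-fold (log2 fold change 2.85 ± 0.16), from 14.7, 21.4 and 22.1 CPM to 136, 130 and 160 CPM. Malt1, a paracaspase that cleaves A20, rose by 1.54 ± 0.15. Tifa, an adaptor that activates TRAF6, fell 6.10-fold, from 73 reads to 8 (-2.61 ± 0.44). Ripk1, the kinase at the TNF receptor that carries ubiquitin chains, was not called (-0.07 ± 0.13, edgeR adjusted p = 0.68). With total reads without rRNA-like genes it was called lower (-0.52, edgeR adjusted p = 0.00203).

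Of 8 ligases of the TRAF, IAP and Pellino families 3 were higher and 1 lower. Peli1, a Pellino ligase of Toll-like receptor signalling, rose 5.49-fold (2.46 ± 0.12), from 74.8, 74.4 and 91.1 CPM to 435, 452 and 439 CPM. Traf6, the ligase of the Toll-like receptor pathway, rose by 0.94 ± 0.14, and Traf2 by 0.78 ± 0.17. With total gene reads alone neither was called (adjusted p = 0.0997 and 0.212).

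The linear ubiquitin assembly complex makes the linear chains that TNIP proteins bind. Its catalytic subunit Rnf31 (HOIP) was higher by 0.73 ± 0.24 (edgeR adjusted p = 0.016), a call that ended in 5 of 16 alternatives. These were DESeq2 (adjusted p = 0.0729), total gene reads alone (0.292), those reads less the rRNA-like genes (0.335), and leaving out replicate 3 of FTY720 (0.07) or of FTY720_LPS (0.0531). Its partners Rbck1 (-0.29 ± 0.17) and Sharpin (-0.13 ± 0.16) were not called. With total reads without rRNA-like genes both were called lower (-0.74 and -0.58, edgeR adjusted p = 0.00106 and 0.00491). Rbck1 was also called lower with upper-quartile factors (-0.43, edgeR adjusted p = 0.0433). Otulin, which cuts linear chains, was not called (0.07 ± 0.18, with the sign turned under 5 of 16 alternatives). Of 7 genes for deubiquitinases and a CYLD partner, 2 were higher and 1 lower. Usp18, an interferon-induced enzyme that removes the ubiquitin-like ISG15, rose 16.9-fold (4.08 ± 0.20), from 4.67, 4.34 and 4.24 CPM to 80.2, 82.5 and 62.1 CPM. Spata2, which brings CYLD to the linear ubiquitin complex, rose by 0.55 ± 0.17 (edgeR adjusted p = 0.00984) while Cyld fell. That call ended without FTY720_LPS replicate 1 (0.50, adjusted p = 0.0538), with total gene reads alone (0.25, adjusted p = 0.537) and with those reads less the rRNA-like genes (0.10, adjusted p = 0.62). Rnf11, a ligase of the A20 complex, was higher by 0.41 ± 0.15 (edgeR adjusted p = 0.0338) with overlapping groups. Its call ended in 9 of 16 alternatives, among them DESeq2 (0.44, adjusted p = 0.071), and leaving out FTY720 replicate 1 (0.33), replicate 2 of that group (0.34) or FTY720_LPS replicate 1 (0.34), and its sign turned with total reads without rRNA-like genes (-0.034). Spata2 and Rnf11 were named after their values were seen.

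Of the 7 genes of the TAK1 and IKK kinase complexes 3 were higher and 2 lower. Tab1, a TAK1-binding activator, fell 3.45-fold, from 133 reads to 27 (-1.79 ± 0.33, edgeR adjusted p = 0.000148). Of 6 ubiquitin-conjugating enzymes 2 were higher and 0 lower, and of 5 ITCH partners and relatives 2 were higher and 1 lower.

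**Figure D4:**
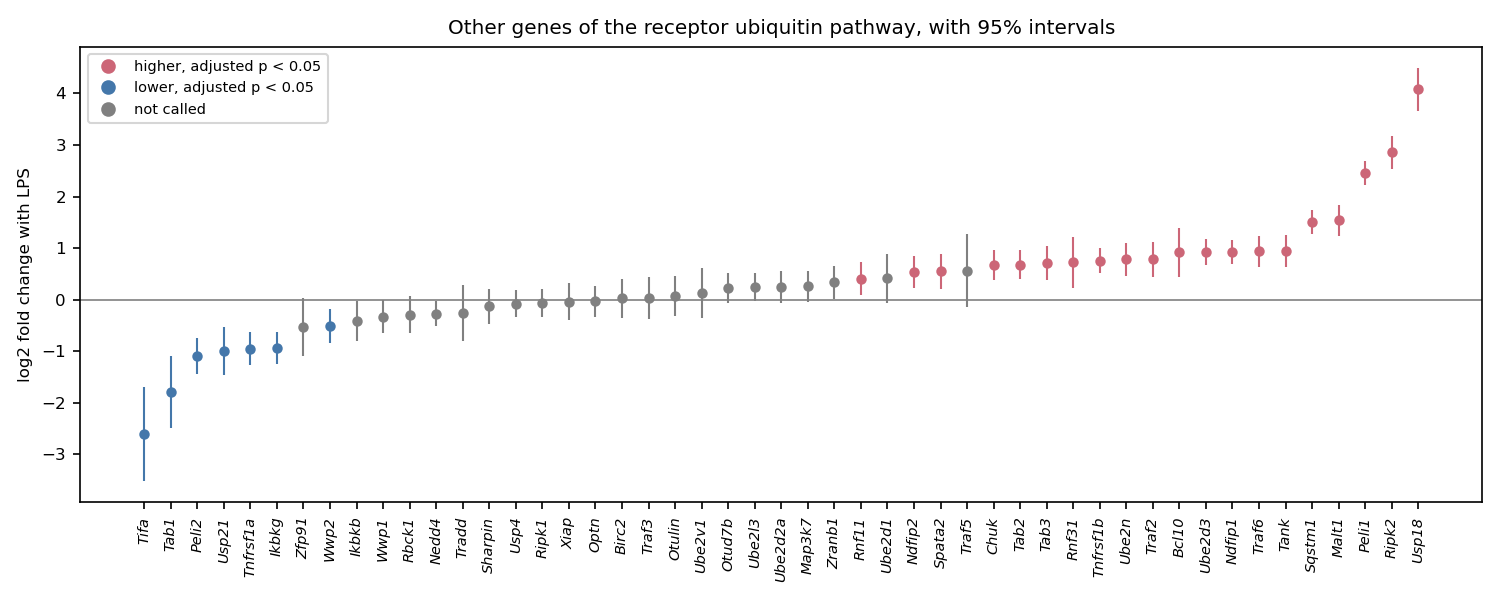
Log2 fold change with LPS of the 49 other pathway genes, in order of size, with 95% intervals (red higher, blue lower, grey not called). Usp18, Ripk2 and Peli1 stand at the upper end and Tifa and Tab1 at the lower end, and 22 genes near the middle were not called.

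The genes whose profile was most like that of Tnfaip3 were sought among the 8257 tested genes whose mean log2 CPM was 3 or more. The measure was the root mean square difference between log2 CPM profiles over the 6 libraries, each centred on its own mean. The closest were Mtmr14 (0.137), Ddx60 (0.140), Clic4 (0.146), Ccnyl1 (0.151) and Irgm1 (0.152). Their log2 fold changes were 2.60, 2.83, 2.84, 2.70 and 2.80, beside 2.77 for Tnfaip3. Levels ranged from 65.5 ± 3.15 CPM with LPS for Ddx60 to 777 ± 57.3 CPM for Clic4. Among the other genes of the group that reached this level, Tnfaip2 (0.766) was closest and Cyld (1.77) was farthest. Traf1, Tnip2 and Tnip3 did not reach it. With 6 libraries in 2 groups this likeness is mostly the size of the change between groups.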

How the data were processed

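RNA-seq of primary mouse microglia was analysed in 6 libraries, 3 with FTY720 and 3 with FTY720 and LPS. Raw read counts per gene, 1 table per library in STAR's layout, are what the authors deposited. STAR 2.5.1, Trimmomatic 0.33, CASAVA 1.8.2, DESeq2 and the build mm10 appear in the submitters' processing notes; no source used here gives the annotation or settings. The strand column holding 98.4% to 98.9% of gene reads was used as sense counts. Rows naming no gene (74.5% to 79.2% of listed reads) were left out.

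The test was edgeR 4.0.16 under R 4.3.3 (quasi-likelihood, TMM, filterByExpr with minimum count 10, Benjamini-Hochberg over 10124 genes, threshold 0.05). The code was checked on simulated data in which few genes changed, equally often up and down, with the same dispersion for all genes. That check cannot show how the test or TMM scaling holds in the present libraries, where many genes were called. SE is the absolute log2 fold change over the root of F; log2 CPM used a prior count of 2. DESeq2 1.42.0 was an alternative. Reads carry no molecular identifiers, so counting intervals and floors show counting error alone. Members and lists were chosen with earlier results of these data known. Named were all members, the 6 called pathway genes of largest change with a mean log2 CPM from 2 upward, 9 preset pathway genes, and the 5 genes most like Tnfaip3; other genes were chosen after their values were seen. In no pair of replicates were the counts equal within sampling noise.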

Additional observations from a re-analysis of the deposited data

Results flagged for a closer look

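Reads on the strand opposite to a gene were left out of the sense counts, and at 4 of the 10 genes their level was higher in every library with LPS than in every library with FTY720 alone. At Tnfaip2 there were 29 such reads with LPS and 3 without, or 0.276% and 0.384% of the reads at that gene. At Tnfaip3 there were 8 and 2 (0.408% and 0.482%), at Traf1 8 and 2 (9.20% and 25.0%), and at Birc3 5 and 0 (1.92% and 0%). The share was thus higher with LPS at Birc3 and lower at Tnfaip2, Tnfaip3 and Traf1. Sense reads of these 4 genes rose as well. The share of all genes whose opposite-strand reads separate in this way was not computed, so the count of 4 cannot be judged unusual. In sense reads the groups were apart, in either direction, for 54.0% of all tested genes. The counts are small, and the source of the opposite-strand reads was not tested.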

How the results depend on the processing

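Calls of the 10 genes changed with the total-read scalings, whereas those of the pathway genes Rnf31, Spata2 and Rnf11 also ended in other settings. With total gene reads alone the median log2 fold change of all tested genes was -0.35 and 22.2% of calls were higher, against -0.04 and 50.7% with TMM factors. With total reads without Rn45s, Lars2 and Mir6236 these were -0.48 and 18.0%, with upper-quartile factors -0.17 and 38.8%, and with DESeq2 -0.03 and 61.6%. In these total-read settings, in that order, 4 and 4 of the 10 genes were higher and 1 and 2 lower. Tnip1 lost its call (0.74 and 0.57, adjusted p = 0.0637 and 0.0786), as did Tax1bp1 (0.35 and 0.22, adjusted p = 0.363 and 0.114) and Birc3 (0.48 and 0.34, adjusted p = 0.198 and 0.0925). Itch was called lower in the second (-0.50, adjusted p = 0.046), as were the pathway genes Ripk1, Rbck1 and Sharpin. Rbck1 was also called lower with upper-quartile factors. Of the pathway list 5 and 10 were higher, 18 were lower in the second, and 12 with upper-quartile factors. The cause was not tested. Among uncalled genes the sign turned for Tnip2 with upper-quartile factors (-0.10), the total-read settings (-0.25 and -0.41) and without FTY720 replicate 3 (-0.23; with 1 library left out the range was -0.23 to 0.28), and for Itch without FTY720 replicate 2, FTY720_LPS replicate 2 or FTY720_LPS replicate 3 (range -0.22 to 0.20). It turned for Birc2 in the upper-quartile and total-read settings (-0.11, -0.29 and -0.42), with a minimum count of 30 (-0.051) and without FTY720 replicate 1 (range -0.034 to 0.073 with 1 library left out), and for Otulin in the same 4 settings (-0.063, -0.27, -0.37 and -0.0071) and without FTY720 replicate 2 (range -0.031 to 0.18).

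For Rnf11 the sign turned with total reads without rRNA-like genes (-0.034). Under the other settings the same 8 genes were called, except that a minimum count of 30 removed Tnip2, Tnip3 and Traf1 from the test. With any 1 library left out 7 genes were higher and 1 lower, and the pathway list gave 18 to 23 higher and 6 to 10 lower. Replicate numbers did not pair the libraries (correlations of deviations -0.022, -0.026 and -0.073 for equal numbers). With a replicate block 7 genes were higher and 1 lower, and 20 and 8 of the pathway list. The ratios between related genes kept their direction in all 9 alternatives each, and that of Tnip3 to Tnip1 ranged from 3.11 to 4.78. Tnip2, Tnip3 and Traf1 are limited by depth.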
